A study of Homo sapiens with 12 samples.

Results

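This comparison set BxPC-3 cells against AsPC-1 cells after both had been given phorbol 12-myristate 13-acetate (PMA), and asked how the treated lines differ. It used 6 of the 12 arrays of the series, 3 of each line. They were chosen by their labels, BxPC-3 with PMA and AsPC-1 with PMA, at 1 µM for 4 h. Both are human pancreatic cancer cell lines, BxPC-3 labelled as a primary line and AsPC-1 as a metastatic line first grown from ascites. All cells were held overnight in 2.5% serum, and PMA was given in 0.1% DMSO. The AsPC-1 replicates 1, 2 and 3 came from passages 8, 10 and 12, and the BxPC-3 replicates from passages 7, 9 and 11. The untreated arrays of each line, 3 against 3 from the same passages, served to show which differences were measured without PMA. Which vehicle those cells received is not stated in the labels. Each line comes from 1 patient's tumour, so the replicates show the spread between passages of a line and not between tumours.

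PMA is a phorbol ester that stands in for diacylglycerol and activates the diacylglycerol-dependent isoforms of protein kinase C (PKC). PKC signals through RAF, MEK and ERK and through NF-kB, and within hours this raises early transcription factors such as FOS and EGR1, the phosphatases that damp ERK, proteases and chemokines. In keratinocytes PMA is also known to switch on genes of terminal differentiation. AP-1, the family of FOS and JUN dimers, binds the short DNA element first described as the PMA response element.

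The values were signal intensities of Affymetrix probe sets on a linear scale, one probe set for each gene, turned into log2(signal + 3). A log2 difference of 1 is a doubling on that scale, which understates the difference of dim genes. Positive differences are higher in BxPC-3. Group means were fitted to 12 arrays with limma, so that all 4 groups share 1 estimate of spread, and a gene was called where its Benjamini-Hochberg adjusted p over 16099 tested genes lay under 0.05. For a single gene, an exact permutation test of 3 arrays against 3 cannot go below p = 0.1, so p-values rest on the fit across genes.

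The 12 arrays shared a scale, with trimmed mean signals of 100.014 to 100.018, and no pair held identical values. The 3' to 5' signal ratio of the GAPDH control probe sets was 1.01 to 1.10 on the AsPC-1 PMA arrays and 1.00 to 1.07 on the BxPC-3 PMA arrays, and that of ACTB was 1.79 to 2.32 and 1.84 to 2.02. AsPC-1 PMA replicate 1 stood apart. It correlated at 0.921 across genes with the other arrays of its group, against 0.945 and 0.946 for replicates 3 and 2. With untreated AsPC-1 of the same passage it correlated at 0.964, while passages 10 and 12 gave 0.942 each. That untreated array, replicate 1, was also the lowest of its own group, at 0.950 against 0.960 and 0.962. The part of passage 8 in this was not tested. On AsPC-1 PMA replicate 1 the MMP1 signal of 2769 was far above the untreated AsPC-1 arrays (15.1, 16.1 and 29.5). Whether the label or the treatment of this PMA array is right is in doubt and was not tested, and it is named by its label throughout. Many results that this array moves are therefore given without it too. Of the 8 epithelial markers checked, 8 lay above the 40th percentile of signal on every PMA array of both lines. The summed signal of 9 fibroblast markers was 1400 to 3460 in AsPC-1 and 178 to 242 in BxPC-3, of which LUM gave 1261, 3024 and 3396 and 51.5, 22.8 and 32.9. For 6 measured blood cell markers it was 2000 to 2510 and 73.4 to 88.3, of which LYZ gave 1896, 2420 and 2214 and 5.62, 0.978 and 6.13. Endothelial markers summed to 47.9 to 62.0 and 61.4 to 91.7, and acinar and islet markers to 22.5 to 57.9 and 59.5 to 84.9. The part of other cells in these values was not tested, and in bulk RNA fewer cells of a type and less RNA per cell cannot be told apart.

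After PMA the lines differed in 5390 of 16099 genes (33.5%), 2941 higher in BxPC-3 (18.3%) and 2449 lower (15.2%). At least 2-fold differences were called for 3721 genes (23.1%), and at least 128-fold differences for 31 genes higher and 14 lower in BxPC-3. In 6985 genes (43.4%) the 3 arrays of a line did not overlap with those of the other. Without AsPC-1 PMA replicate 1 the count was 6542 (40.6%), 3826 higher (23.8%) and 2716 lower (16.9%), and 4998 of the 5390 genes were called in both fits in the same direction. Of the 5390, 3729 were called in each of the 12 fits that left out 1 array. Centring every array on its median moved the median of all genes from 0.03 to -0.10 and the share of called genes that were higher in BxPC-3 from 54.6% to 45.9%.

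The largest difference was in PTGS2, the inducible cyclooxygenase that makes prostaglandin precursors. Its signals were 0.509, 0.179 and 4.34 on the AsPC-1 PMA arrays and 5125, 6470 and 5515 on the BxPC-3 PMA arrays, a log2 difference of 10.35 ± 0.32 (SE, adjusted p = 8.00e-11). It was near the floor on every AsPC-1 array and bright on every BxPC-3 array. KRT13, a keratin of stratified epithelium that does not cornify, had 1.87, 1.15 and 1.88 against 2564, 3040 and 2772, a log2 difference of 9.24 ± 0.32 (SE, adjusted p = 1.96e-10). KRT5, the keratin of basal cells, had 6.0, 13.7 and 2.85 against 3405, 3447 and 3924, a log2 difference of 8.55 ± 0.36 (SE, adjusted p = 9.60e-10). Further genes of squamous cells followed, the protease inhibitor cystatin A CSTA (8.50) and the cornified envelope precursor SPRR1B (8.43). The other members of the leading 8 were LDHB, a subunit of lactate dehydrogenase (8.68), GLUL, the glutamine synthetase (8.62), and MAL2, a protein of apical transport (8.60). GLUL had 4 probe sets, 3 of them bright, whose log2 differences ran from 2.21 to 8.62, so its size and not its direction turned on the probe set.

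In the other direction IGFBP3, a binding protein for insulin-like growth factors, led with 7360, 5872 and 6267 in AsPC-1 against 1.32, 6.92 and 3.93 in BxPC-3, a log2 difference of -9.92 ± 0.36 (SE, adjusted p = 2.77e-10). Its relative IGFBP1 had 7215, 5634 and 3868 against 4.59, 8.89 and 6.4, a log2 difference of -9.16 ± 0.28 (SE, adjusted p = 8.00e-11). CDH17, the cadherin of intestinal epithelium, had 4756, 6104 and 6328 against 7.18, 11.2 and 10.6, a log2 difference of -8.83 ± 0.25 (SE, adjusted p = 8.00e-11). No BxPC-3 array reached the AsPC-1 range in these 3 genes. Lysozyme LYZ (-8.32), the lysosomal activator precursor PSAP (-8.12), the matrix proteoglycan VCAN (-8.00), the monocarboxylate transporter relative SLC16A4 (-7.79) and the pantetheinase VNN1 (-7.78) completed the 8. For all 16 genes every bright probe set had the same sign.

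**Figure D1:**
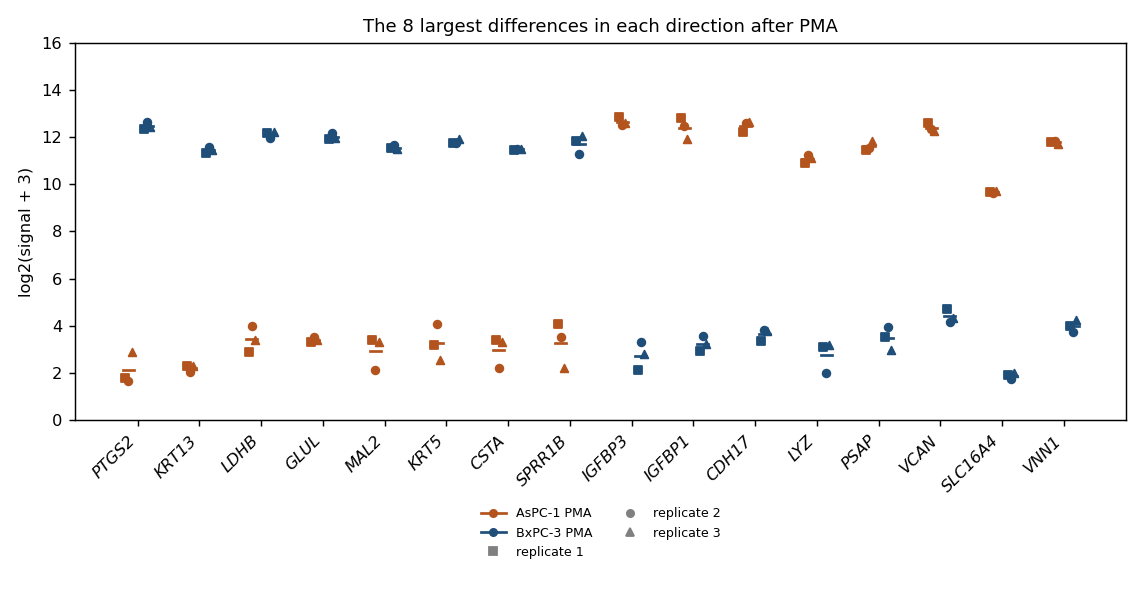
Log2(signal + 3) on each PMA array for the 16 genes with the largest differences between lines among called genes whose arrays do not overlap. Each symbol is an array, shaped by replicate, each short line is a group mean, and the colours are the lines. In the first 8 genes the BxPC-3 arrays lie near the top and the AsPC-1 arrays near the floor, with PTGS2 at a difference of 10.35, and in the last 8 the order is turned, with IGFBP3 at -9.92.

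Gene lists were described by how many of their tested members were called, to be read against 18.3% higher and 15.2% lower over all genes. Keratins are the filament proteins of epithelia. Of 14 keratins 7 were higher and 3 lower in BxPC-3 (median 0.62, against 0.03 over all genes). Besides KRT13 and KRT5, KRT7 of duct epithelium was higher (5.06), but its probe set without the marks for related transcripts gave 0.03 and was not called. The simple-epithelium pair KRT8 (-1.67 ± 0.27 (SE, adjusted p = 0.000288)) and KRT18 (-0.79 ± 0.11 (SE, adjusted p = 0.000107)) was lower. Of 23 genes of the cornified envelope and epidermal differentiation, 10 were higher and 4 lower (median 0.88). CSTA and SPRR1B led the higher ones. The lower ones were led by the kallikrein proteases KLK6 (-3.23) and KLK10 (-2.28). Among 12 desmosome genes, which rivet neighbouring cells, 5 were higher, led by periplakin PPL (5.29) and plakophilin PKP1 (4.39), and 2 lower, DSC2 (-4.21) and DSG2 (-0.54).

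Tight and adherens junction genes had 10 of 22 higher and 4 lower after PMA, with a median of 0.69. In untreated cells 5 were higher and 9 lower, with a median of -0.54. A test of the difference between these line differences, given below, called 3 of the 22 genes, all moved towards BxPC-3. Over all genes 0.491% were called, and 0.317% moved towards BxPC-3. Of the 3 genes only OCLN kept this call in all 12 fits that left out 1 array, and the others kept it in 4 each. P-cadherin CDH3 (6.07) and the epithelial splicing regulator ESRP1 (4.17) led the higher ones. E-cadherin CDH1, the main adhesion protein of epithelia, had 473, 992 and 993 in AsPC-1 and 4438, 4317 and 5091 in BxPC-3, a log2 difference of 2.56 ± 0.24 (SE, adjusted p = 2.57e-06). Every BxPC-3 array was above every AsPC-1 array. CLDN12 (-1.88) and the adhesion molecule EPCAM (-1.23) led the lower ones. Vimentin VIM, the filament of mesenchymal cells, had 7919, 7174 and 7177 against 166, 10.4 and 97.5, a log2 difference of -6.92 ± 0.78 (SE, adjusted p = 1.29e-05). The mesenchymal list as a whole was mixed, 5 higher and 4 lower of 15. VIM and the repressor of E-cadherin ZEB1 (-5.92) were lower in BxPC-3, while collagen COL3A1 (3.20) and fibronectin FN1 (4.25) were higher. FN1 gave 0.03 on the probe set without marks, where it was not called.

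**Figure D2:**
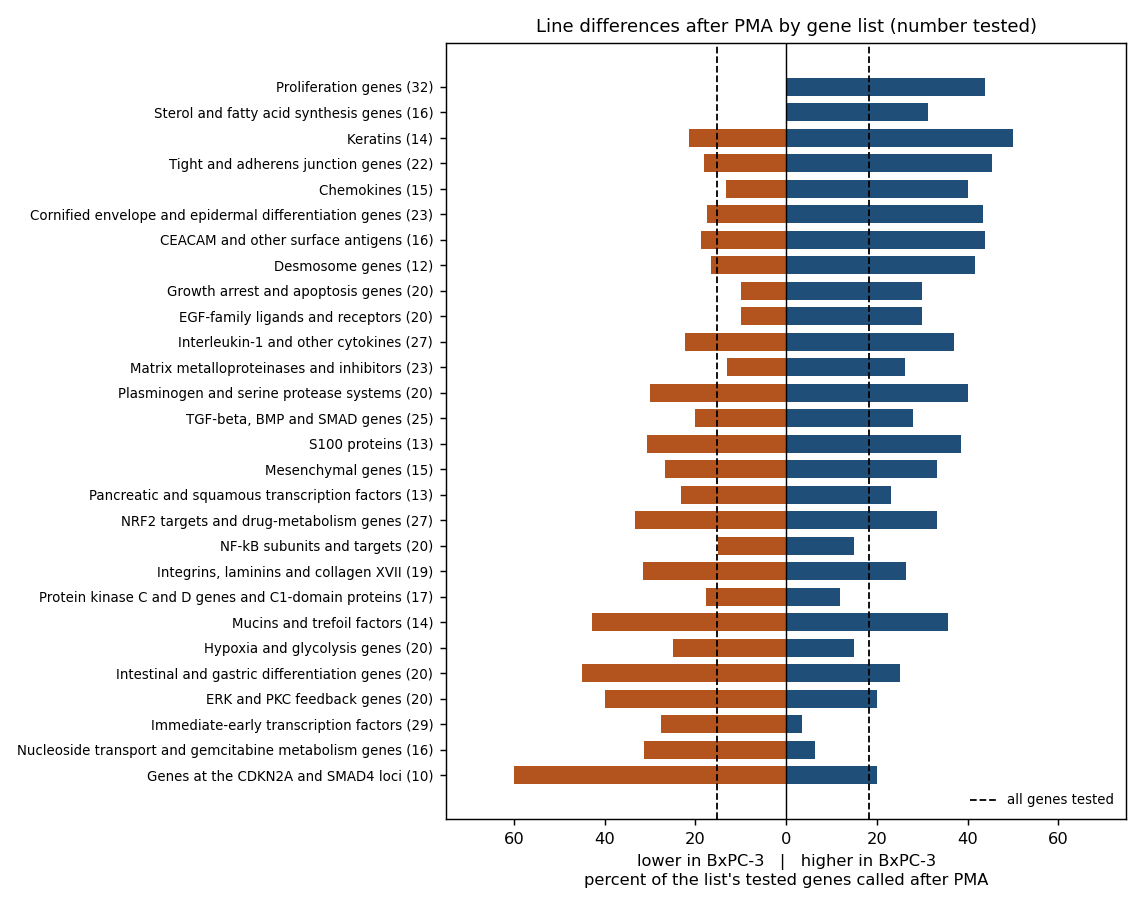
Percent of each list's tested genes called higher (blue, right) and lower (orange, left) in BxPC-3 after PMA, for lists with at least 10 tested genes, whose number stands in brackets. The dashed lines mark all genes tested, 18.3% higher and 15.2% lower. Proliferation genes, with 14 higher and 0 lower, stand at the top and the genes around CDKN2A and SMAD4 at the bottom.

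Genes of intestinal and gastric differentiation leaned to AsPC-1, with 9 of 20 lower and 5 higher in BxPC-3 (median -0.68). CDH17 and villin VIL1 (-6.85), the actin bundler of the brush border, led the lower ones. The higher ones were led by the gastric annexin ANXA10 (5.00) and the endoderm factor FOXA2 (3.80). Mucins and trefoil factors were divided, 5 higher and 6 lower of 14. The membrane mucin MUC4 (6.02) and the gel-forming intestinal mucin MUC2 (3.41) were higher, and the membrane mucins MUC17 (-7.11) and MUC13 (-4.80) lower. Of 16 surface antigens 7 were higher, led by LY6D (8.27) and CD24 (7.50), and 3 lower, led by PSCA (-2.00) and mesothelin MSLN (-1.75). Among 13 S100 calcium-binding proteins 5 were higher, led by S100A9 (4.38) and S100A2 (3.48), and 4 lower, led by S100A4 (-3.88). The transcription factors of pancreas and squamous cells gave 3 higher, led by SOX2 (3.33), and 3 lower, led by ONECUT2 (-2.79) and the duct factor SOX9 (-1.94), of 13. Without AsPC-1 PMA replicate 1 the counts were 6 and 3. SOX2 gave 0.75, adjusted p = 0.104, as the mean of its 4 probe sets.

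Genes near CDKN2A and SMAD4 stood out in BxPC-3 by dim signals. BxPC-3 is known to lack both tumour suppressors, and DNA was not measured here. CDKN2A, the inhibitor of CDK4 and CDK6, had 2120, 1607 and 1597 in AsPC-1 and 20.2, 36.9 and 4.91 in BxPC-3, a log2 difference of -6.50 ± 0.48 (SE, adjusted p = 2.46e-07). SMAD4, the common partner of TGF-beta signalling SMADs, had 214, 121 and 111 against 0.104, 3.01 and 2.96, a log2 difference of -4.92 ± 0.40 (SE, adjusted p = 5.72e-07). The BxPC-3 arrays did not reach the AsPC-1 arrays in either gene. Of 10 tested genes at these loci 6 were lower and 2 higher. Around CDKN2A on chromosome 9, CDKN2B (-7.08) and KLHL9 (-4.86) were lower, while MTAP, which lies beside it, was dim in both lines, with means of 26.2 and 25.0, and was not called. The next measured genes beyond CDKN2B in the RefSeq order, TUSC1 (4.29), CAAP1 (1.75) and PLAA (1.11), were higher in BxPC-3. Around SMAD4 on chromosome 18, its neighbours ME2 (-4.38) and MEX3C (-6.30) were lower, ELAC1 was dim in both lines, and MBD2, the next measured gene after MEX3C, was higher (1.54). MBD2 gave 0.33, adjusted p = 0.436, as the mean of its 4 probe sets, of which 1 was bright. Farther out in the same direction CCDC68 was lower (-3.76). KLHL9, MTAP, TUSC1, CAAP1, PLAA, ME2, MEX3C, ELAC1 and CCDC68 were picked after their values were seen.

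Proteases that cut the matrix were looked at because the series describes PMA as an inducer of invasion. Of 23 matrix metalloproteinases and inhibitors 6 were higher and 3 lower (median -0.14). The inhibitor TIMP3 (7.34) and the collagenase MMP13 (4.95) led the higher ones, and the inhibitor TIMP4 (-4.51) and the matrilysin MMP7 the lower ones. MMP7 had 3241, 4231 and 4251 in AsPC-1 and 156, 274 and 244 in BxPC-3, a log2 difference of -4.13 ± 0.19 (SE, adjusted p = 2.98e-09). The interstitial collagenase MMP1 had 2769, 550.2 and 436 against 4072, 1966 and 3179, a log2 difference of 1.75 ± 0.54 (SE, adjusted p = 0.0232). AsPC-1 replicate 1 lay inside the BxPC-3 range, so the groups overlapped. The MMP1 difference was 2.58 (adjusted p = 2.21e-05) without that array. It was not called without AsPC-1 PMA replicate 2 (1.42, adjusted p = 0.0942), AsPC-1 PMA replicate 3 (1.25, adjusted p = 0.106), BxPC-3 PMA replicate 1 (1.51, adjusted p = 0.0911) or BxPC-3 PMA replicate 3 (1.69, adjusted p = 0.0677), nor in a fit of the 6 PMA arrays alone (adjusted p = 0.074). The gelatinase MMP9 was dim in both lines, at 27.2, 30.6 and 35.1 and 63.6, 39.2 and 40.4, and not called (0.55 (adjusted p = 0.298)).

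In the plasminogen and serine protease list 8 of 20 were higher and 6 lower (median 0.60). The protease inhibitor TFPI2 (8.07) and the membrane protease TMPRSS4 (7.44) led the higher ones, and TMPRSS2 (-3.24) and SERPINE2 (-2.67) the lower ones. The urokinase receptor PLAUR had 881, 4290 and 4144 in AsPC-1 and 5675, 5358 and 5591 in BxPC-3. All 3 BxPC-3 arrays were higher, yet the log2 difference of 1.15 ± 0.46 (SE, adjusted p = 0.0698) missed the threshold. Dropping AsPC-1 PMA replicate 1 gave 0.39 (adjusted p = 0.154). It was called when AsPC-1 PMA replicate 2 (1.53, adjusted p = 0.0259) or replicate 3 (1.51, adjusted p = 0.0301) was dropped. With all arrays it was also called after quantile normalization (1.25, adjusted p = 0.033), as the mean of its probe sets (1.14, adjusted p = 0.03) and on unmarked probe sets (0.78, adjusted p = 0.0165). Urokinase PLAU had 1506, 5674 and 5356 against 4556, 4406 and 4736, a log2 difference of 0.35 ± 0.39 (SE, adjusted p = 0.546), and -0.27 (adjusted p = 0.328) without AsPC-1 PMA replicate 1. Integrins, laminins and collagen XVII gave 5 higher and 6 lower of 19, with COL7A1 (4.04) and ITGA1 (2.25) above and LAMA4 (-5.42) and the fibronectin receptor subunit ITGA5 (-1.91) below. LAMA4 gave -0.19 on the probe set without marks and was not called there.

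Interleukin-1 family members and other cytokines gave 10 of 27 higher and 6 lower in BxPC-3, and 11 and 8 without AsPC-1 PMA replicate 1. The epithelial alarm cytokine TSLP (5.67) and the interleukin-33 receptor IL1RL1 (5.33) led the higher ones, and TNFSF15 (-7.26) and IL32 (-4.91) the lower ones. IL36G, an epidermal interleukin-1 relative, had 17.2, 30.4 and 48.4 in AsPC-1 and 474, 268 and 506 in BxPC-3, a log2 difference of 3.63 ± 0.38 (SE, adjusted p = 6.13e-06), with no overlap. Of 15 chemokines 6 were higher and 2 lower. CXCL11 (4.77), a lymphocyte attractant, and CXCL17 (3.85) were higher, and the neutrophil attractants CXCL5 (-4.69) and CXCL3 (-3.71) lower. CXCL8, the best known of the neutrophil attractants, had 180.5, 6610 and 6974 against 3427, 3800 and 3583. Its BxPC-3 arrays lay between AsPC-1 replicate 1 and the other AsPC-1 arrays, and its log2 difference was 0.82 ± 1.00 (SE, adjusted p = 0.584). Without AsPC-1 PMA replicate 1 the sign turned, to -0.91 (adjusted p = 0.0423). In that fit 6 chemokines were higher and 6 lower.

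A list of EGF-family ligands, their receptors and other receptor kinases such as FGFR2, IGF1R and MET gave 6 of 20 higher and 2 lower. Without AsPC-1 PMA replicate 1 it gave 6 and 4. The EGF-family ligand NRG1 (4.87) and FGFR2 (4.59), a receptor outside that family, led the higher ones. Probe sets without the marks for related transcripts gave 1.11 for NRG1, which was not called, and -1.47 for FGFR2 (adjusted p = 0.00895). EGFR itself was lower in BxPC-3 (-1.44), while ERBB2 (-0.04), ERBB3 (-0.05) and ERBB4 (0.14) were not called. In the TGF-beta, BMP and SMAD list 7 of 25 were higher and 5 lower, and 10 and 5 without AsPC-1 PMA replicate 1. The higher ones were led by activin subunit INHBA (6.04) and GDF15 (4.83), and the lower ones by SMAD4 and BMP4 (-3.58). The call of BMP4 was lost without any 1 of the 3 BxPC-3 PMA arrays (-3.51, -3.58 and -3.63).

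Among early genes of the PKC and ERK response several values turned on AsPC-1 PMA replicate 1. EGR1, a zinc finger factor raised within an hour of ERK activation, had 1458, 7160 and 7028 in AsPC-1 and 789, 1150 and 804 in BxPC-3, a log2 difference of -2.21 ± 0.49 (SE, adjusted p = 0.00293). DUSP1, a phosphatase that switches off MAP kinases, had 1022, 6257 and 6562 against 529.6, 554 and 561, a log2 difference of -2.66 ± 0.52 (SE, adjusted p = 0.00127). Both genes were higher on every AsPC-1 array, with replicate 1 closest to BxPC-3. Without it the differences were -2.97 and -3.54. Of 29 immediate-early transcription factors 1 was higher and 8 were lower, with a median of -0.43. Without AsPC-1 PMA replicate 1 these became 2 and 17, with a median of -0.94. KLF6 (-2.22) and EGR1 led the lower ones. The higher one was FOSL2 (0.71), which was not called without AsPC-1 PMA replicate 2 or BxPC-3 PMA replicate 2 (0.58 and 0.49).

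The counts for NF-kB subunits and targets also turned on that array. Of 20, 3 were higher and 3 lower with it (median 0.00), and 2 higher and 10 lower without it (median -0.61). The adhesion molecule ICAM1, an NF-kB target picked after its values were seen, had 23.5, 553 and 786 in AsPC-1 and 133, 154 and 99.1 in BxPC-3. Its log2 difference was -0.80 (adjusted p = 0.542) with all arrays and -2.35 (adjusted p = 1.27e-05) without replicate 1. PTX3 (3.91) and NFKBIZ (3.00) were higher in BxPC-3 and TNIP1 (-1.31) lower, the last of which gave -0.57 on the probe set without marks and was not called. ERK and PKC feedback genes gave 4 of 20 higher and 8 lower, and 3 and 10 without the array. Among them the phosphatase DUSP5 was higher (3.94) and the ERK inhibitor SPRY4 lower (-2.67).

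The direct receptors of PMA were compared too, in a list that also held partners of PKC. Its 17 tested genes were for PKC and PKD isoforms, proteins with a C1 domain, the phorbol-binding fold, and partners such as the scaffold AKAP12. The counts higher and lower were 2 and 3, and 5 and 5 without AsPC-1 PMA replicate 1. Without AsPC-1 untreated replicate 1, which enters only the shared spread, they were 3 and 5. PRKCH, the PKC eta isoform of stratified epithelia, had 11.6, 9.39 and 7.9 in AsPC-1 and 418, 498 and 411 in BxPC-3, a log2 difference of 5.14 ± 0.27 (SE, adjusted p = 8.98e-09). The RAS activator RASGRP3 was also higher (1.94), but neither of its 2 probe sets was bright and the other gave -0.11. PRKCA, the conventional alpha isoform, was lower in BxPC-3 (-1.15), as was the PKC scaffold AKAP12 (-2.59).

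**Figure D3:**
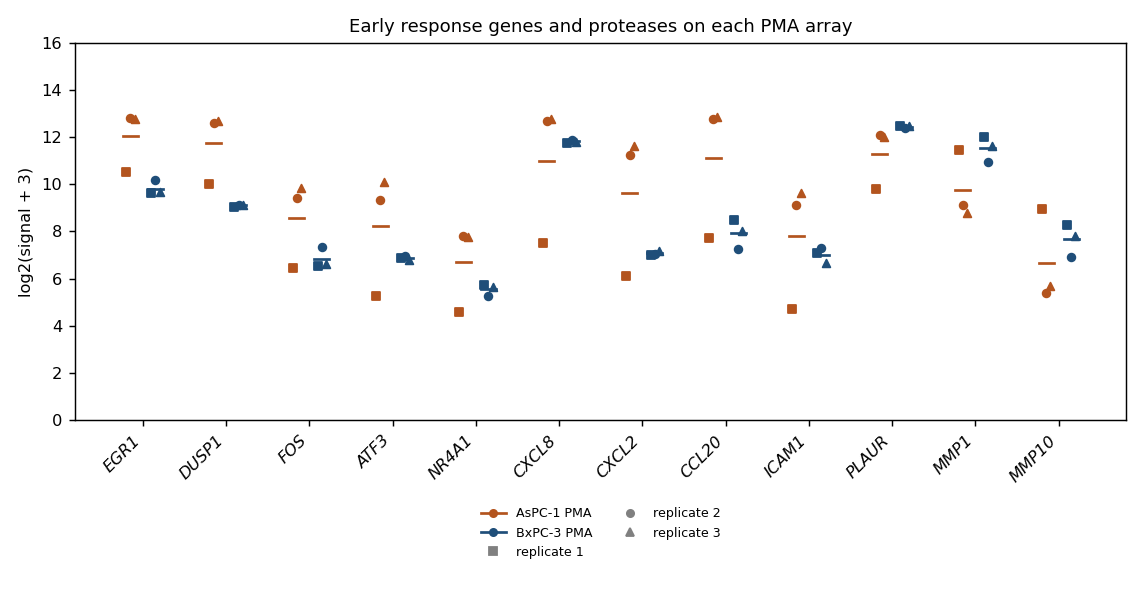
Log2(signal + 3) on each PMA array for early response genes, chemokines and proteases, chosen after their values were seen. Symbols are arrays, shaped by replicate, short lines are group means and colours are the lines. AsPC-1 PMA replicate 1 (square) lies below the other AsPC-1 arrays in EGR1, DUSP1, CXCL8 and PLAUR and above them in MMP1 and MMP10.

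Proliferation genes leaned to BxPC-3, with 14 of 32 higher and 0 lower (median 0.61), and 19 higher and 1 lower without AsPC-1 PMA replicate 1. The higher ones were led by the replication helicase subunit MCM5 (1.74) and cyclin CCNE2 (1.70). In untreated cells 9 were higher and 0 lower, with a median of 0.14. The test of the difference between these line differences, given below, called 0 of the 32 genes (0.491% over all genes). Of 20 growth arrest and apoptosis genes 6 were higher, led by BCL2 (2.82) and MDM2 (2.17), and 2 lower. BCL2 gave 0.90 (adjusted p = 0.0532) as the mean of all its probe sets.

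Metabolic lists were mostly mixed. NRF2 target and drug-metabolism genes gave 9 higher and 9 lower of 27, and 9 and 12 without AsPC-1 PMA replicate 1. The reductase AKR1B10 (4.25) and GSTM3 (3.58) were higher, and the efflux pumps ABCG2 (-6.00) and ABCC2 (-4.11) lower. GSTM3 gave 0.37 on the probe set without marks and was not called there. Among 16 genes that handle nucleosides and gemcitabine, cytidine deaminase CDA (-5.41) and uridine phosphorylase UPP1 (-2.55) led 5 lower genes, and RRM1 was the higher 1 (0.54). RRM1 was not called without AsPC-1 PMA replicate 2 or BxPC-3 PMA replicates 1 or 3 (0.53, 0.42 and 0.46). Sterol and fatty acid synthesis genes had 5 of 16 higher and 0 lower, led by FASN (1.52) and SREBF1 (1.47), and 4 and 2 without AsPC-1 PMA replicate 1. FASN gave 0.61, adjusted p = 0.234, as the mean of its 2 probe sets. Of 20 hypoxia and glycolysis genes 3 were higher, led by VEGFA (2.51), and 5 lower. These 8 calls were 5 without AsPC-1 PMA replicate 2, BxPC-3 PMA replicate 2 or BxPC-3 PMA replicate 3. They were also 5 after median centring, which left 3 of the 5 sterol calls. Without AsPC-1 PMA replicate 1, 4 hypoxia and glycolysis genes were higher and 6 lower.

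Most differences after PMA were also measured in untreated cells, which share no array with the treated ones. Untreated, 5216 genes (32.4%) were called, 2699 higher (16.8%) and 2517 lower (15.6%) in BxPC-3. Of the 2941 genes higher after PMA, 2095 (71.2%) were also higher untreated, 22 were lower untreated and 824 were not called. Of the 2449 genes lower after PMA, 1781 (72.7%) were also lower untreated, 4 were higher untreated and 664 were not called. Such lists differ partly because a gene falls just past the threshold in one and not in the other. The difference of the line differences was therefore tested in the same fit. It was called in 79 genes (0.491%), 51 moved towards BxPC-3 (0.317%) and 28 towards AsPC-1 (0.174%). Of the 824 and 664 genes called after PMA only, 12 and 7 were among the 79.

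**Figure D4:**
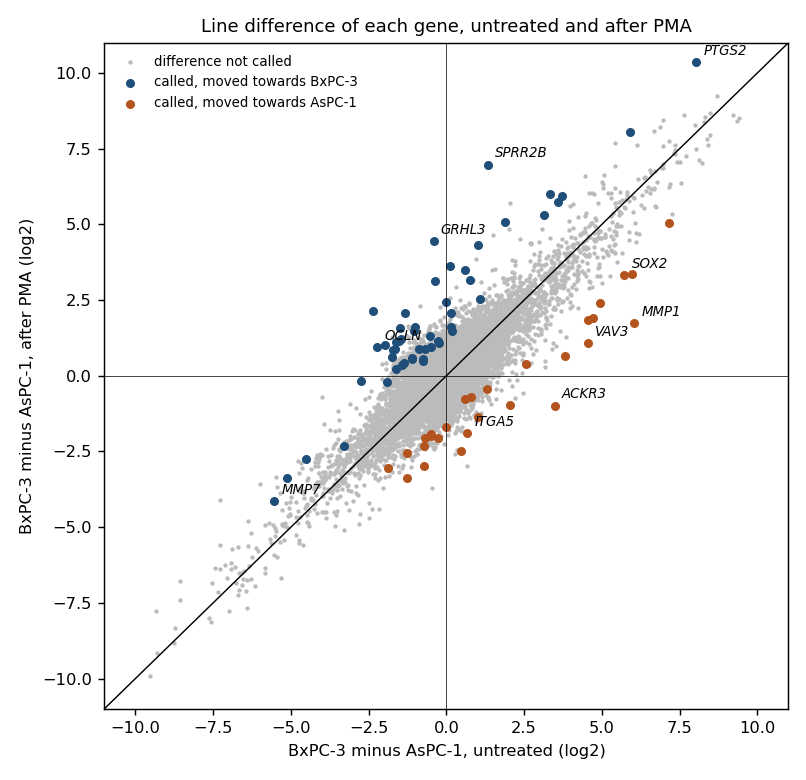
Log2 difference between lines (BxPC-3 minus AsPC-1) of each tested gene, untreated (horizontal) and after PMA (vertical), with the diagonal of equal differences. The 51 genes called as moved towards BxPC-3 are blue, the 28 moved towards AsPC-1 orange and all others grey. Most genes lie along the diagonal, while SPRR2B at 6.98 after PMA and MMP1 at 1.75 lie away from it.

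The count of 79 depended on single arrays. It was 713 (4.43%) without AsPC-1 PMA replicate 1, with all 79 among them, and 32 and 43 without replicates 2 and 3 of that group. It was 15, 19 and 9 without BxPC-3 PMA replicates 1, 2 and 3. Without BxPC-3 untreated replicates 1, 2 and 3 it was 9, 23 and 31, and without AsPC-1 untreated replicates 2 and 3 it was 14 and 43. Of the 79 genes 9 kept their call in each of the 12 fits that left out 1 array, among them SPRR2B, MYRFL, OCLN, ZNF18 and MN1. In 44 of the 51 genes moved towards BxPC-3 the PMA response of BxPC-3 was called as a rise, and in 8 that of AsPC-1 as a fall. Of the 28 moved towards AsPC-1, 16 had a called fall in BxPC-3 and 11 a called rise in AsPC-1. The move is the PMA response of BxPC-3 minus that of AsPC-1, on the same arrays. Such responses therefore follow in part from the choice of the genes, and the counts only describe them.

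The promoters of 4 of the 79 genes are shown because they hold TGANTCA, the pattern searched for the AP-1 element. Their genes belong to the lists above or to the largest changes. In the pattern N is any base, so a match elsewhere need not be the element itself. The promoters run from 250 bases before to 50 bases after the start, 5′ to 3′ on the gene's strand, from RefSeq on GRCh38.p14. Capitals mark the pattern, which reads the same on both strands, and all 4 matches shown read TGAGTCA. SPRR1A lies at chr1:152983831-152984130, plus strand, MMP7 at chr11:102530698-102530997, minus strand, VAV3 at chr1:107688450-107688749, minus strand and ITGA5 at chr12:54419217-54419516, minus strand. The first base of the match lies 108 bases before the start in SPRR1A, 67 in MMP7, 116 in VAV3 and 6 in ITGA5.
SPRR1A: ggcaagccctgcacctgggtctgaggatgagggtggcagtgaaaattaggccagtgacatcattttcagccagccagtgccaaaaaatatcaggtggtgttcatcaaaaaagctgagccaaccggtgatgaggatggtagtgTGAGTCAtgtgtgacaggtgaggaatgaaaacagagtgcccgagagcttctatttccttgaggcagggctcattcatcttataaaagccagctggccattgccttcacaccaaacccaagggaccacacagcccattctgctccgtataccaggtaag
MMP7: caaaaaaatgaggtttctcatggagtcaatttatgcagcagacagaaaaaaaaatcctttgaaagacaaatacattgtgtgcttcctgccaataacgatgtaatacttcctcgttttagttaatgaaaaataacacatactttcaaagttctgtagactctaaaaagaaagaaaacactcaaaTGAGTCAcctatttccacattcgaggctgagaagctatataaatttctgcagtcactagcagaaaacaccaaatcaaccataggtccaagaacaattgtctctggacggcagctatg
VAV3: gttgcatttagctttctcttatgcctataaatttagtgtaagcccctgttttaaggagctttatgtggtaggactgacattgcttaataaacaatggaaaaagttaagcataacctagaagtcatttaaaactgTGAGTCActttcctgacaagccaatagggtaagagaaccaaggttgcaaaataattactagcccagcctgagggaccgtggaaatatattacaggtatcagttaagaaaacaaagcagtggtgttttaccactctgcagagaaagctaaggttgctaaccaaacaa
ITGA5: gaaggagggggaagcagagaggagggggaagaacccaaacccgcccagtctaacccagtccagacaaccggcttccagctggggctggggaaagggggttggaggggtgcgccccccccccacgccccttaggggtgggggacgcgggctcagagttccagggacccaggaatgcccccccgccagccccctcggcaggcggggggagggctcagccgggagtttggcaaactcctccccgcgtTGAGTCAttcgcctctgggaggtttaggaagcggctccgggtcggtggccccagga
Of all 27305 promoters of this length 7.76% held the pattern, and of those of the 12738 tested genes with an entry 5.40%. It was in 5.41% of the matched genes higher in BxPC-3 after PMA and 4.48% of those lower. Of the genes whose line difference moved towards BxPC-3, 7 of 40 with an entry (17.5%) held it. Among those moved towards AsPC-1 it was 4 of 18 (22.2%). None of these genes with a match kept its call in all 12 fits that left out 1 array, and they kept it in 1 to 9. Whether the shares differ from that of all tested genes was not tested. Among the named genes with a moved line difference, SPRR2B, GRHL3, MYRFL, IL36G, LURAP1L, NCF1, ZNF18 and PTGS2 held no match. MMP1, ACKR3, PI3 and MN1 had no promoter entry and were not searched. A match describes these letters only.

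Genes of epidermal differentiation were among the largest moves towards BxPC-3. SPRR2B, a cornified envelope precursor, had 8.16, 3.16 and 7.14 untreated and 8.15, 3.42 and 2.41 after PMA in AsPC-1, and 22, 23.9 and 13.9 and 1053, 625 and 1161 in BxPC-3. The line difference moved by 5.63 ± 0.52 (SE, adjusted p = 0.000417), from 1.34 to 6.98. Only the BxPC-3 PMA arrays were bright. GRHL3, a transcription factor of the skin barrier, had 15.4, 3.69 and 16.6 and 296, 321 and 257 after PMA and moved by 4.86 ± 0.76 (SE, adjusted p = 0.0165). IL36G moved by 3.52 ± 0.53 (SE, adjusted p = 0.0165), with 9.0, 7.82 and 3.47 and 6.82, 8.41 and 6.42 in the untreated lines. The call of GRHL3 was lost without AsPC-1 untreated replicate 2, BxPC-3 untreated replicate 1 or any BxPC-3 PMA array, and that of IL36G without AsPC-1 untreated replicate 2, BxPC-3 untreated replicate 1 or BxPC-3 PMA replicates 1 or 3.

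MYRFL moved by 4.50 ± 0.51 (SE, adjusted p = 0.00212) and LURAP1L by 3.50 ± 0.59 (SE, adjusted p = 0.0228). NCF1, a subunit of the phagocyte oxidase whose probe set related genes can share, moved by 3.38 ± 0.55 (SE, adjusted p = 0.0172). Mean signals in untreated and PMA-treated AsPC-1, then untreated and PMA-treated BxPC-3, were 18.1, 18.1, 1.07 and 80.8 for MYRFL. They were 34.4, 18.2, 25.5 and 151 for LURAP1L and 10.3, 2.32, 2.07 and 18.9 for NCF1. Several of these means lay near or under the array's 40th percentile (8.18 to 10.2), where folds are uncertain. LURAP1L kept its call in 2 of 12 fits without 1 array, those without AsPC-1 PMA replicates 1 or 2, and NCF1 in 6, those without any AsPC-1 PMA array, AsPC-1 untreated replicates 1 or 3 or BxPC-3 untreated replicate 3. The tight junction protein occludin OCLN, picked after its values were seen, turned its sign. It had 718, 1135 and 1025 in untreated AsPC-1 and 189.8, 183 and 226 in untreated BxPC-3, against 601, 1007 and 1064 and 1616, 1730 and 1622 after PMA. AsPC-1 was higher on every untreated array and BxPC-3 on every PMA array, a move of 3.16 ± 0.32 (SE, adjusted p = 0.000574). SPRR1A, also picked after its values were seen and with its promoter printed above, moved from 3.71 to 5.93. PTGS2 moved from 8.03 to 10.35 (2.32, adjusted p = 0.043), and its AsPC-1 signals stayed at most 4.34 on all 6 arrays. MMP7 moved from -5.54 to -4.13. PTGS2 and SPRR1A kept the difference call in 2 of 12 fits, those without AsPC-1 PMA replicates 1 or 3, and MMP7 in 2, those without AsPC-1 PMA replicate 1 or BxPC-3 PMA replicate 1.

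Towards AsPC-1 the largest moves were in ACKR3, a scavenging receptor for CXCL12, and in MMP1. ACKR3 had 20.9, 16.8 and 37.9 untreated and 30.8, 320.1 and 178 after PMA in AsPC-1, and 325, 246 and 328 and 51.8, 47.1 and 89.2 in BxPC-3. The line difference moved by -4.47 ± 0.87 (SE, adjusted p = 0.0421), a call kept in 1 of 12 fits, that without AsPC-1 PMA replicate 1. As the mean of its 3 probe sets the move of ACKR3 was -1.45 (adjusted p = 0.366). The call was also lost after median centring (adjusted p = 0.0871), quantile normalization (adjusted p = 0.0622), with no filter (adjusted p = 0.0555) and with eBayes without trend (adjusted p = 0.097). In AsPC-1 only PMA replicate 2 reached the untreated BxPC-3 range. After PMA the line difference of ACKR3 was -0.99 (adjusted p = 0.25) with all arrays and -1.93 (adjusted p = 0.000536) without AsPC-1 PMA replicate 1. MMP1 had 15.1, 16.1 and 29.5 in untreated AsPC-1 and 1234, 2055 and 1266 in untreated BxPC-3, and its difference fell from 6.04 to 1.75, a move of -4.30 ± 0.77 (SE, adjusted p = 0.0304). The MMP1 call was kept in 4 of 12 fits, those without any AsPC-1 PMA array or AsPC-1 untreated replicate 3, and lost with eBayes without trend (adjusted p = 0.0749). VAV3, a guanine nucleotide exchange factor, had 310.3, 366 and 431 in untreated BxPC-3 and 23.5, 50.7 and 27.4 after PMA, against 8.12, 19.9 and 12.5 and 6.15, 19.3 and 19.4 in AsPC-1. Its line difference moved by -3.46 ± 0.57 (SE, adjusted p = 0.0186), a call lost without AsPC-1 PMA replicate 2, any BxPC-3 untreated array or BxPC-3 PMA replicates 1 or 3.

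MN1 was not called between the untreated lines (0.48, adjusted p = 0.202) and was lower on every BxPC-3 PMA array, at 13.6, 21 and 20.6 against 130.1, 105 and 114, a move of -2.97 ± 0.38 (SE, adjusted p = 0.00563). The zinc finger gene ZNF18 had 0.788, 0.632 and 1.86 untreated and 14.8, 12.7 and 19.8 after PMA in AsPC-1, and 44.6, 57.2 and 62 and 26.6, 24.6 and 27.6 in BxPC-3, a move of -3.15 ± 0.41 (SE, adjusted p = 0.00563). The elastase inhibitor PI3 was higher in untreated BxPC-3 (2.05) and had 265, 181 and 364 in AsPC-1 and 176, 121 and 109.7 in BxPC-3 after PMA (-0.95 (adjusted p = 0.0556)), a move of -2.998 ± 0.51 (SE, adjusted p = 0.0228) that was kept in 5 of 12 fits, those without any AsPC-1 untreated array but replicate 2, AsPC-1 PMA replicates 1 or 2 or BxPC-3 untreated replicate 3. ITGA5 had 174, 157 and 161 in AsPC-1 PMA arrays, 69.5, 27.6 and 36.7 in BxPC-3 PMA arrays, and 26.7, 21.8 and 21.2 and 48, 45 and 26.1 untreated, a move of -2.57 ± 0.45 (SE, adjusted p = 0.0278). SOX2, a squamous lineage factor, had 337, 344 and 400.1 in untreated BxPC-3 and 58.1, 111 and 54.5 after PMA, and was dim on all AsPC-1 arrays, a move of -2.39 ± 0.44 (SE, adjusted p = 0.0342). ITGA5 kept the call in 4 of 12 fits, those without AsPC-1 untreated replicate 1, AsPC-1 PMA replicate 1, BxPC-3 untreated replicate 3 or BxPC-3 PMA replicate 1. SOX2 kept it in 3, those without AsPC-1 untreated replicate 1, AsPC-1 PMA replicate 1 or BxPC-3 PMA replicate 2.

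**Figure D5:**
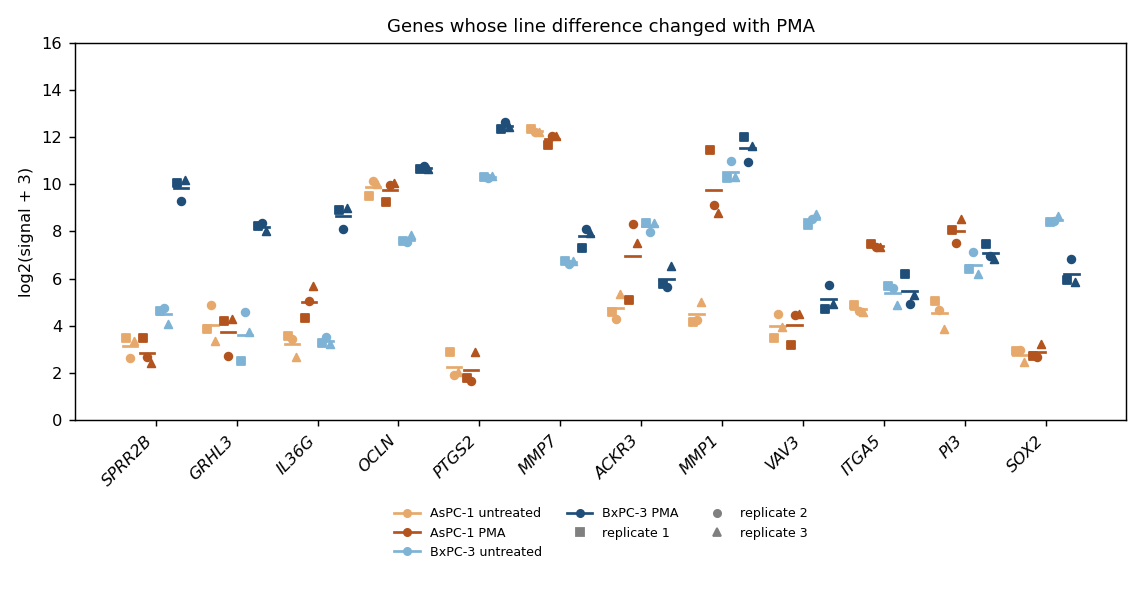
Log2(signal + 3) on all 12 arrays, in 4 groups of 3, for genes whose line difference was called as changed with PMA, OCLN among them picked after its values were seen. Symbols are arrays, shaped by replicate, and short lines are group means. SPRR2B, GRHL3 and IL36G are high only in BxPC-3 PMA, OCLN changes its order between lines, and ITGA5 is highest in AsPC-1 PMA.

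A mark s or x in a probe set's name means that transcripts of related genes may bind it as well. The genes named above on such probe sets were AKAP12, AKR1B10, BMP4, CAAP1, CD24, CDH1, CDKN2A, COL3A1, CXCL11, CXCL5, CXCL8, DUSP1, EGR1, ELAC1, EPCAM, ERBB2, FASN, FGFR2, FN1, GDF15, GLUL, GSTM3, ICAM1, IGFBP3, IL1RL1, IL32, KLHL9, KLK10, KRT13, KRT18, KRT7, KRT8, LAMA4, LDHB, LUM, LYZ, MBD2, MCM5, MDM2, MEX3C, MMP9, MSLN, MUC13, NCF1, NFKBIZ, NRG1, PLAA, PLAU, PLAUR, PSAP, RASGRP3, RRM1, S100A4, SMAD4, SOX9, SPRR1A, SPRR2B, SPRY4, TIMP3, TNIP1, VCAN, VEGFA and VIM. On unmarked probe sets alone, which measure fewer members, the counts higher and lower were 2 and 1 for keratins. The counts were 2 and 2 for mesenchymal genes, 2 and 3 for EGF-family and receptor kinase genes and 1 and 2 for immediate-early factors. In total 7 integrin and laminin genes were called on them, 6 of the TGF-beta list, 5 growth arrest, 3 hypoxia, 10 NRF2 and 3 sterol genes. Taken as the mean of all probe sets of a gene, FOSL2 (0.41), TNIP1 (-0.94) and RRM1 (0.42) lost their calls too. A fit of the 6 PMA arrays alone did not call FOSL2, RRM1 or BMP4. Genes that kept the call on that mean, but with a log2 difference more than 1.5 times smaller, were COL3A1 (1.29), FGFR2 (1.56), FN1 (2.13), FOXA2 (2.14), GDF15 (1.63), GSTM3 (1.97), IGFBP1 (-5.52), KRT7 (1.85), LAMA4 (-2.67), MDM2 (0.72), MUC17 (-4.44), MUC4 (3.30), NRG1 (2.35), PRKCH (3.12), SMAD4 (-2.14) and VIL1 (-3.89). Detection calls were not used, and no signal was set against background.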

How the data were processed

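Expression was measured on Affymetrix arrays in 12 samples, and this comparison used 6 of them, with the other 6 in the shared fit. The authors deposited 1 table of linear signal intensity for 54675 probe sets, made with MAS5, per the submitters' processing notes, with no version given in the sources used here. Of these, 62 control probe sets were left out, 41091 had 1 gene symbol, 1801 several and 11721 none, and only the first kind was named. By Entrez ID 41037 matched RefSeq (GRCh38.p14). Of 19775 genes, each with the probe set of highest mean log2(signal + 3), 16099 exceeded the array's 40th percentile (8.18 to 10.2) on at least 3 arrays. The pseudocount of 3 is near the median 20th percentile (2.71). The signals were not normalized again.

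Group means were fitted with limma 3.58.1 in R 4.3.3 (two-sided eBayes, prior variance trended on intensity, residual degrees of freedom 8, Benjamini-Hochberg at 0.05). The contrasts were the line difference after PMA, untreated, and the difference of the 2. Treated and untreated arrays of a line share passages, and their deviations from group means had correlations of 0.411, 0.206 and 0.157 for AsPC-1 but -0.0539, -0.126 and -0.0589 for BxPC-3. Between lines arrays share only a number (0.00790, -0.0212 and 0.0263), so no block was used. Tested on simulated data (16099 genes, 5 rounds, 200 changed genes each), the fit recovered 25.0% of 2-fold and 71.4% of 4-fold differences. Of the calls 4.55% were false. The simulated lines were otherwise equal after PMA, with noise independent between arrays and genes, while 33.5% of genes were called in the data. These rates therefore do not carry over to this comparison. The number of arrays limits the precision.

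Named genes were the 8 largest differences in each direction without overlap, up to 2 called members in each direction of each of 33 lists, the 6 largest differences of differences in each direction, and a fixed set that included MMP1, MMP9, PLAU, PLAUR, CDH1 and VIM. The members and lists were chosen with earlier results of these data known. Alternatives were other scalings, pseudocounts, filters, probe set rules and fits, blocks, and leaving out each array. Plots were made with matplotlib 3.10.9 (Python 3.11.15).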

Additional observations from a re-analysis of the deposited data

Results flagged for a closer look

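The results here were picked because the line difference after PMA differed from that in untreated cells by a test of the difference itself in limma. That test called 79 genes, with Benjamini-Hochberg adjustment. The difference moved towards BxPC-3 in PTGS2 (2.32 on the log2 scale), MMP7 (1.41), SPRR2B (5.63), GRHL3 (4.86), MYRFL (4.50), IL36G (3.52), LURAP1L (3.50) and NCF1 (3.38). It moved towards AsPC-1 in SOX2 (-2.39), ITGA5 (-2.57), UPP1 (-1.29), ACKR3 (-4.47), MMP1 (-4.30), VAV3 (-3.46), ZNF18 (-3.15), PI3 (-2.998) and MN1 (-2.97). UPP1 kept this call in 1 of the 12 fits that left out 1 array, that without AsPC-1 PMA replicate 1.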

How the results depend on the processing

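The after-PMA count of 5390 lay between 3721, with a 2-fold minimum, and 6542 over all alternatives, and the untreated count of 5216 also stayed within 1.5 times. The difference count of 79 did not. It was 41 after median centring and 49 with the replicate number as a fixed term, and ran from 9 to 713 when 1 array was left out. With a replicate block for passage as a random term, the counts were 5415 and 112, and with the number as a fixed term the after-PMA count was 5392. Between the lines the numbers share no passage, and 1 of 3 AsPC-1 PMA arrays correlated best with the BxPC-3 array of its own number. Signs turned in 3 cases. FGFR2 was -1.47 on probe sets without the marks s or x, and without AsPC-1 PMA replicate 1 CXCL8 was -0.91 and PLAU -0.27. Leaving out 1 array in turn gave -0.91 to 1.71 for CXCL8 and -0.27 to 0.68 for PLAU. The cause was not tested. With only the 6 PMA arrays, 4348 genes were called. Low signals limit the folds, since dim values carry no order.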

Other observations

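The other 4 genes kept their call for a changed line difference in each fit that left out 1 array, and were picked after their values were seen. GALNT5, an enzyme that starts O-linked glycans, had 1054, 879 and 816 in untreated and 619.7, 466 and 416 in PMA-treated AsPC-1, against 244, 235 and 204 and 946, 993 and 1091 in BxPC-3. The order of the lines turned, from -1.99 to 1.03, a move of 3.02 ± 0.25 (SE, adjusted p = 0.000237) in limma. VGLL3, a cofactor of TEAD transcription factors, turned likewise from -1.76 to 0.63, a move of 2.39 ± 0.24 (SE, adjusted p = 0.000574). NCOA7 moved from 0.74 to 3.16 and C1orf74 from 0.59 to 3.49, with 5078, 5842 and 5466 and 312, 235 and 322 on the BxPC-3 PMA arrays.

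The called differences after PMA were spread unevenly over chromosomes, as assigned by RefSeq on GRCh38.p14. On chromosome 2, 30.2% of 1053 tested genes were lower in BxPC-3 and 8.45% higher. On chromosomes 14 and 15 the order was turned, with 31.3% and 32.2% higher and 6.03% and 6.88% lower of 514 and 509 genes. Chromosome 13 had 25.7% higher and 8.91% lower of 303. The medians on these 4 chromosomes after PMA were -0.33, 0.39, 0.37 and 0.34, against -0.40, 0.31, 0.30 and 0.32 untreated. Copy number was not measured, and its part in this was not tested.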
